A study of Mus musculus with 2 samples.

Results

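The surrogate light chain and pre-B stage genes were followed through every gene probe whose name, or current synonym, was Vpreb1, Vpreb2, Vpreb3, Igll1, Arpp21, Cplx2, Enpep, Mme, Cd93 or Cd24a. These 10 genes had 19 of the 41174 gene probes, and 15 of the 19, from 9 of the 10 genes, were bright enough to be tested. Immature B cells of the 3-83Igi line, whose antigen receptor genes are knocked in and recognise class I molecules of the H-2b type, were sorted from bone marrow as B220-positive cells negative for CD23, CD43 and IgD, and were pooled. Autoreactive cells came from BALB.B mice with the genotype 3-83Igi,Rag1-/-,H-2b, and non-autoreactive cells from BALB/c mice with the genotype 3-83Igi,H-2d. All mice were untreated, and the labels give no age. Each of 2 two-colour arrays set a pool of autoreactive cells (Cy5) directly against non-autoreactive cells (Cy3), with the same dye for the same group on both. Strain, H-2 type, the Rag1 disruption and dye therefore cannot be told apart from autoreactivity. Pool numbers are given for the autoreactive cells alone and the animals behind a pool are not named, so the p-values measure the spread between these arrays, which may be technical.

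B cell precursors first make an immunoglobulin heavy chain, which is brought to the cell surface with a surrogate light chain in place of a real one. The surrogate chain is built from VpreB, encoded by Vpreb1 and Vpreb2, and from lambda5, encoded by Igll1, and the receptor it forms is the checkpoint at which pre-B cells expand. Its genes are turned off as cells pass on to rearrange and use a conventional light chain, so their transcripts mark an earlier stage than the immature B cell. The other genes are known as stage markers (the peptidases encoded by Enpep and Mme, the surface proteins CD93 and CD24) or from profiles of developing lymphocytes.

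Each array carried 43379 gene spots. In each channel 54.1% to 57.4% of them stood well above background, and none was saturated. Rag1, the gene labelled as disrupted in the autoreactive cells, had normalized log2 levels of 15.36 and 15.94 in them, against 11.11 and 11.92 in the non-autoreactive cells. Its mean log2 ratio was 4.14 at the brightest probe and 1.04 at the lowest of 3 probes. The labels do not say which stretch is disrupted, so these probes check neither the disruption nor the labels. The B lineage markers Cd79a, Cd79b, Pax5, Ebf1, Ptprc, Blnk and Vpreb3 were well above background in both groups, as were Fcer2a and Spn, which encode the CD23 and CD43 that the sort selected against. Markers of other cells were also detected, with negative median ratios in each of 6 lists. The 7 plasmacytoid dendritic cell markers had a median log2 ratio of -0.82 on array 1 and -2.64 on array 2, with summed log2 levels of 12.74 to 13.49 in autoreactive and 14.34 to 14.78 in non-autoreactive cells. The 9 T and NK cell markers went from a median of -0.044 to -1.06, with sums of 11.95 to 13.15 and 13.12 to 13.28 (in the autoreactive channel Cd8a and Cd3g stayed near background), and the 10 granulocyte and monocyte markers from 0.077 to -0.72, with sums of 18.80 to 19.00 and 18.72 to 19.18. The 7 erythroid markers had medians of -0.52 and -0.49 (sums 14.32 to 14.64 and 14.92 to 15.20). Of the stroma markers 4 of 6 were tested (medians -0.27 and -0.80, sums 11.16 to 11.73 and 11.86 to 11.95), and the 4 plasma cell markers had medians of -0.11 and -0.50 (sums 13.38 to 13.47 and 12.89 to 13.06). Past the threshold were 2 lower erythroid, 1 lower granulocyte and monocyte, 1 lower plasmacytoid dendritic, and 2 lower and 1 higher plasma cell marker. Of all tested genes 2.62% were called lower and 3.52% higher. At an unadjusted p under 0.05, limma put all 7 plasmacytoid dendritic, 6 erythroid, 3 granulocyte and monocyte, and 3 T and NK markers lower. It also put 2 stroma and 2 plasma cell markers lower and 1 plasma cell marker higher. The share of all tested genes at that unadjusted p is not given. The part of these other cells in the results below was not tested.

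Vpreb1, Igll1 and Vpreb2 lie on chromosome 16. Vpreb1 and Igll1 are neighbours, 4416 bases apart, while Vpreb2 lies 1110.2 kb from Vpreb1 (RefSeq, GRCm38.p6). The sequences before their starts are shown because these 3 genes moved the same way. They are those of the reference strain, not of the mice studied. A block of 103 bases before the Vpreb1 start (chr16:16869259-16869361, minus strand, 106 to 4 bases before the start) recurs before Vpreb2 (chr16:17980315-17980417, plus strand, 250 to 148 bases before the start). The copies share 102 of 103 bases (99.0%), and the capital marks the base that differs.

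Vpreb1: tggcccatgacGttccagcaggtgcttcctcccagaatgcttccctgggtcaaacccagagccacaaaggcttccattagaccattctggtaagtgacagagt

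Vpreb2: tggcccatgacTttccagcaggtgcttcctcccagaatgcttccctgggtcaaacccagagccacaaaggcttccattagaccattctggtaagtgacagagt

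The block sits against the Vpreb1 start but farther from the Vpreb2 start, and the Vpreb2 and Vpreb3 windows lie within the span that RefSeq gives those genes. The 250 bases before the starts of Igll1 (chr16:16863986-16864235, minus strand) and Vpreb3 (chr10:75948050-75948299, plus strand) are given next, since the ratios of these genes differ in sign. Capitals mark matches, on either strand, to CCCNNGGG (a core bound by EBF1), to the E-boxes CAGCTG and CAGGTG, or to TGGGAA (a core bound by Ikaros).

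Igll1: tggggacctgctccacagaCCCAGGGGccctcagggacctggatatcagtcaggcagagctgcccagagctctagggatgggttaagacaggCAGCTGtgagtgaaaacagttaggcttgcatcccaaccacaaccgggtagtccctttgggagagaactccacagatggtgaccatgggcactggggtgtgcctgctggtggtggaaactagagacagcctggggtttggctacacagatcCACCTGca

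Vpreb3: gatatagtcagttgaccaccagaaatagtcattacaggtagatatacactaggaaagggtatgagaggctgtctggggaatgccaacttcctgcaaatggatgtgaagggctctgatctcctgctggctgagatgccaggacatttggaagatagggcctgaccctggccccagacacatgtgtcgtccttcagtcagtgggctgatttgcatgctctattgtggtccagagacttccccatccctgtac

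The Igll1 window held 1 match each to CCCNNGGG, CAGCTG and CAGGTG, the last within 8 bases of the start. Vpreb1 and Vpreb2 shared a CAGGTG inside the block, 88 to 83 and 232 to 227 bases before their starts. Vpreb2 also had a CAGCTG 60 to 55 bases and a TGGGAA (reverse strand) 64 to 59 bases before its start, which overlap. These 4 motifs were found in 11.8%, 13.0%, 17.2% and 21.6% of 32851 promoter windows of the same length, in the order given above, so a match is common and is a description only. None of the 4 was found in the Vpreb3 window. The window of Cplx2, a gene with a positive ratio, held 1 match each to CCCNNGGG and CAGCTG, as did that of Igll1. Some Arpp21 windows held E-boxes, and Mme windows held CCCNNGGG. Whether a motif goes with the direction of a gene was not tested.

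The 3 genes of the surrogate light chain were all lower in autoreactive cells. Vpreb1 had normalized log2 levels of 14.34 and 13.69 in the autoreactive channel of arrays 1 and 2, against 15.84 and 15.66 in the non-autoreactive channel. The groups did not overlap, and the higher autoreactive value stayed below the lower non-autoreactive one. With 2 values in each group this is easily met. The share of all tested genes that meet it is not given, so here and below it is a description only. The log2 ratio of autoreactive over non-autoreactive was -1.50 on array 1 and -1.97 on array 2, a mean of -1.74 ± 0.15 (limma SE, n = 2 arrays; 95% confidence interval -2.11 to -1.36), or 3.34-fold lower (limma adjusted p = 0.0052). Only 0.23% of all tested probes had a ratio as low. In pooled cells, fewer cells of a type and less RNA per cell cannot be told apart. Of all genes tested by their brightest probe, 2.62% were called lower at an adjusted p under 0.05 and 3.52% higher, and Vpreb1, Igll1 and Vpreb2 were each among those called lower.

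Igll1, whose product lambda5 pairs with VpreB, was measured by 2 probes. At the brighter one the log2 level was 13.07 and 11.77 in autoreactive and 14.24 and 13.51 in non-autoreactive cells. Again the groups did not overlap, although array 2 was lower than array 1 in both of them. The ratios of -1.17 and -1.73 gave a mean of -1.45 ± 0.17 (SE, n = 2; interval -1.86 to -1.04), or 2.73-fold lower (limma adjusted p = 0.0095). The second, dim probe read -0.63 and -1.29, a mean of -0.96 (SE 0.18, limma adjusted p = 0.039). Its autoreactive signal on array 2 was not well above background, so that it was tested there only through the channel where it is high, and it adds no support to the first.

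Vpreb2, the close relative of Vpreb1, had log2 levels of 9.997 and 9.08 in autoreactive and 11.00 and 10.15 in non-autoreactive cells. Here the groups came close without overlapping: the autoreactive level on array 1 was just below the non-autoreactive level on array 2, and array 2 was lower in both groups. The ratios were nearly equal on the arrays, -1.003 and -1.07, a mean of -1.04 ± 0.12 (SE, n = 2; interval -1.34 to -0.74), or 2.05-fold lower (limma adjusted p = 0.010). How far the Vpreb1 and Vpreb2 probes also bind the other transcript was not tested.

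**Figure D1:**
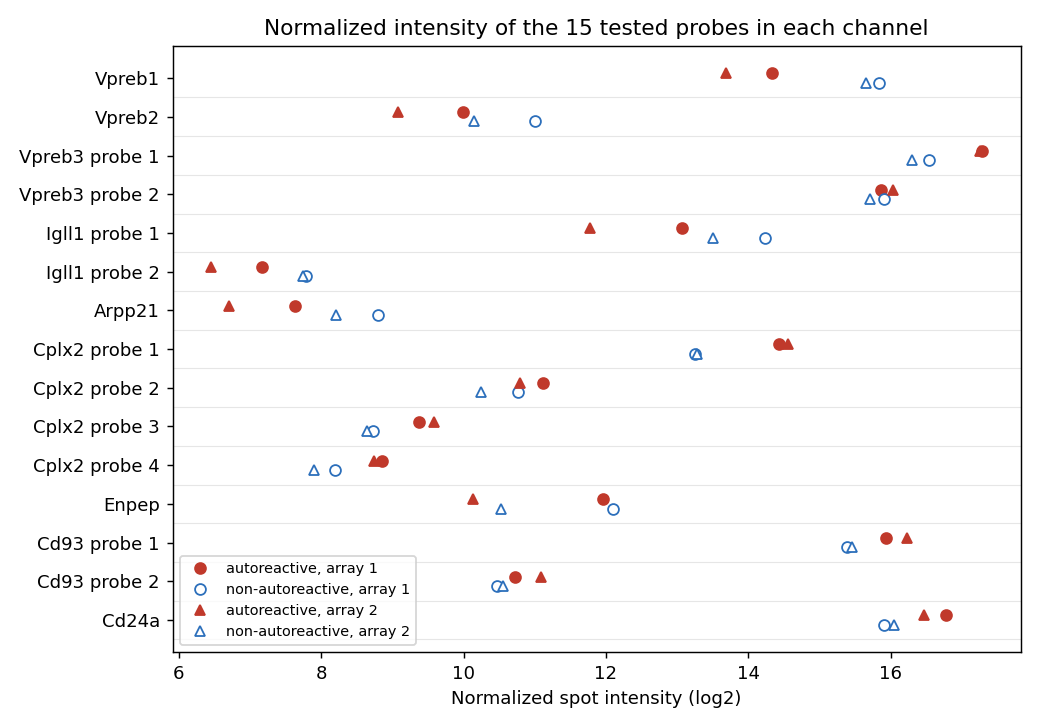
Normalized log2 spot intensity of the 15 tested probes in each channel, with filled red symbols for autoreactive and open blue symbols for non-autoreactive cells, circles for array 1 and triangles for array 2. Vpreb1 sits at 13.69 and 14.34 in autoreactive and at 15.66 and 15.84 in non-autoreactive cells, and levels are to be compared within a row, since probes differ in brightness.

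Vpreb3, which encodes a relative of VpreB that binds newly made heavy chains inside the cell, did not move with the surrogate light chain. At its brighter probe the log2 level was 17.28 and 17.25 in autoreactive and 16.53 and 16.30 in non-autoreactive cells. Both autoreactive values lay above both non-autoreactive ones, and the mean ratio was 0.85 ± 0.13 (SE, n = 2; interval 0.54 to 1.16; ratios 0.75 and 0.95; limma adjusted p = 0.021). A second probe, whose start is 222 bases away in the files' coordinates, read 15.87 and 16.03 against 15.90 and 15.71, with ratios of -0.034 and 0.32 and a mean of 0.14 ± 0.14 (limma adjusted p = 0.58). The rise was thus seen at 1 of 2 probes for the same transcript.

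The brighter Vpreb3 probe was brighter than 99.9% of tested probes, and the dye scale bears on such spots. Before dye normalization the median log2 ratio of Cy5 over Cy3 was 1.37 on array 1 and 1.02 on array 2, but 2.65 and 2.39 in the brightest 2% of tested probes. Vpreb3 read 2.92 and 2.99 on that scale. With the deposited ratios, which the scanner program dye-normalized, the mean of the brighter Vpreb3 probe was 0.32 (limma adjusted p = 0.29) and that of the second probe -0.17 (limma adjusted p = 0.60). Vpreb1 read 0.42 and -0.31 before dye normalization, where probes of like brightness had medians of 1.86 and 1.60.

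**Figure D2:**
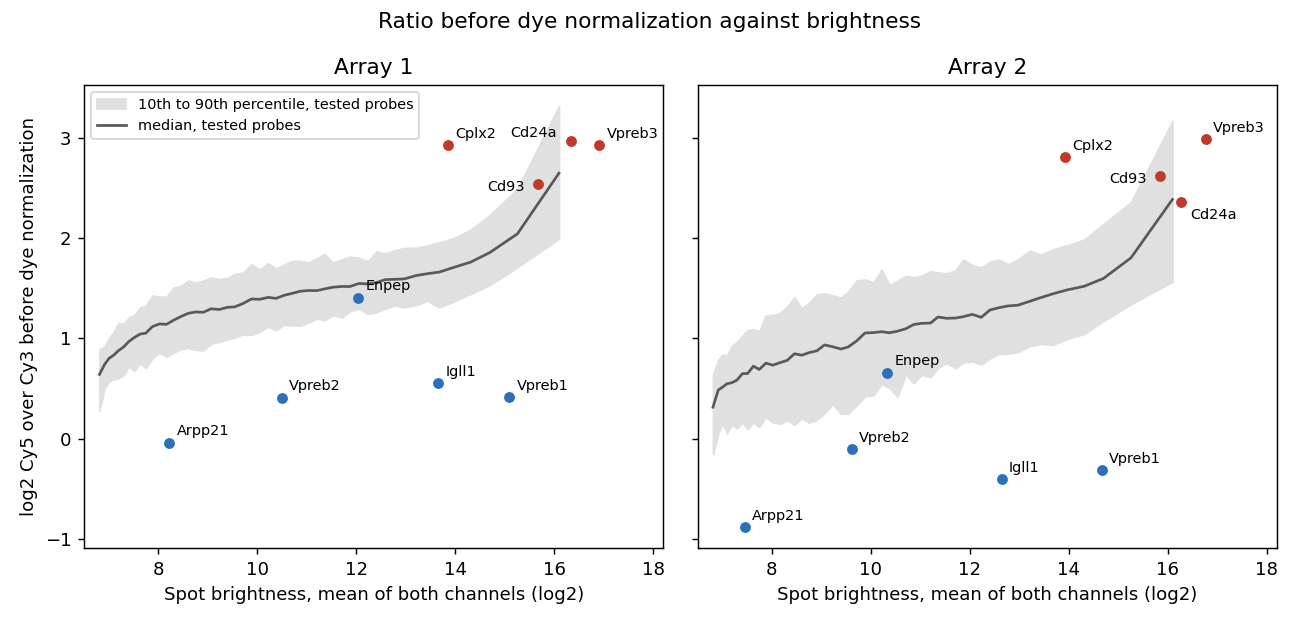
Log2 ratio of Cy5 (autoreactive) over Cy3 (non-autoreactive) before dye normalization against spot brightness on each array, with the median (line) and the range from the 10th to the 90th percentile (grey) of tested probes. The median climbs with brightness; Vpreb1, Igll1, Vpreb2 and Arpp21 lie below the grey band on both arrays and Cplx2 above it, while Cd93 and Enpep lie within it.

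The other transcripts of developing lymphocytes split in direction as well. Arpp21, which encodes a cAMP-regulated phosphoprotein known from neurons and immature thymocytes, was lower. Its tested probe, for RefSeq NM_033264, had log2 levels of 7.63 and 6.70 in autoreactive and 8.80 and 8.21 in non-autoreactive cells, which did not overlap. The ratios were -1.17 and -1.51, a mean of -1.34 ± 0.14 (SE, n = 2; interval -1.68 to -1.001), or 2.53-fold lower (limma adjusted p = 0.0079). This probe was dim: its autoreactive signal was well above background on 1 of 2 arrays, so that on array 2 it was tested only through the channel where it is high, and it was not tested when detection in both channels was required. The size of its change is therefore uncertain, and the deposited ratios gave a mean of -2.14 (limma adjusted p = 0.019). The other 2 Arpp21 probes were not well above background in either channel on either array and were not tested.

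Cplx2, which encodes complexin 2, a protein that binds the SNARE machinery of vesicle release, was higher in autoreactive cells at all 4 of its probes and past the threshold at 3. At the brightest probe the log2 level was 14.43 and 14.56 in autoreactive and 13.26 and 13.28 in non-autoreactive cells. Each group was tight and the groups were more than 1 log2 unit apart. The ratios of 1.18 and 1.28 gave 1.23 ± 0.12 (SE, n = 2; interval 0.93 to 1.53), or 2.34-fold higher (limma adjusted p = 0.0073). The other probes read 0.79 (limma adjusted p = 0.029), 0.76 (0.028) and 0.45 (0.11), and the mean over all 4 was 0.81 (0.023). The brightest Cplx2 probe was past the threshold in all 10 alternative analyses that gave a test, more than any other probe of these genes.

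Of the surface markers, CD93 and CD24 are used to mark immature B cells. Cd93, read by the AA4.1 antibody, had log2 levels of 15.93 and 16.22 in autoreactive and 15.39 and 15.46 in non-autoreactive cells at its brighter probe. The groups did not overlap, and the mean ratio was 0.65 ± 0.13 (SE, n = 2; interval 0.34 to 0.97; ratios 0.54 and 0.76; limma adjusted p = 0.045). The second Cd93 probe read 0.39 (limma adjusted p = 0.16). Cd24a, which encodes heat stable antigen, had log2 levels of 16.78 and 16.47 against 15.91 and 16.05, also without overlap, and a mean ratio of 0.64 ± 0.15 (interval 0.27 to 1.01; ratios 0.87 and 0.42) that did not pass the threshold (limma adjusted p = 0.071). Both probes were among the brightest (98.3 and 99.3 as percentiles of tested probes), and with the deposited ratios they read 0.28 and 0.27 (limma adjusted p = 0.36 and 0.41).

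Enpep encodes the aminopeptidase BP-1, a marker of pre-B cells. Its log2 level was 11.96 and 10.13 in autoreactive and 12.10 and 10.53 in non-autoreactive cells. The groups overlapped, and the spread between arrays was far wider than that between groups. The mean ratio was -0.26 ± 0.13 (SE, n = 2; interval -0.59 to 0.059; ratios -0.13 and -0.40; limma adjusted p = 0.29). Mme, which encodes CD10, was not well above background at either of its 2 probes in any channel, so its level has only an upper bound and no ratio is given.

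**Figure D3:**
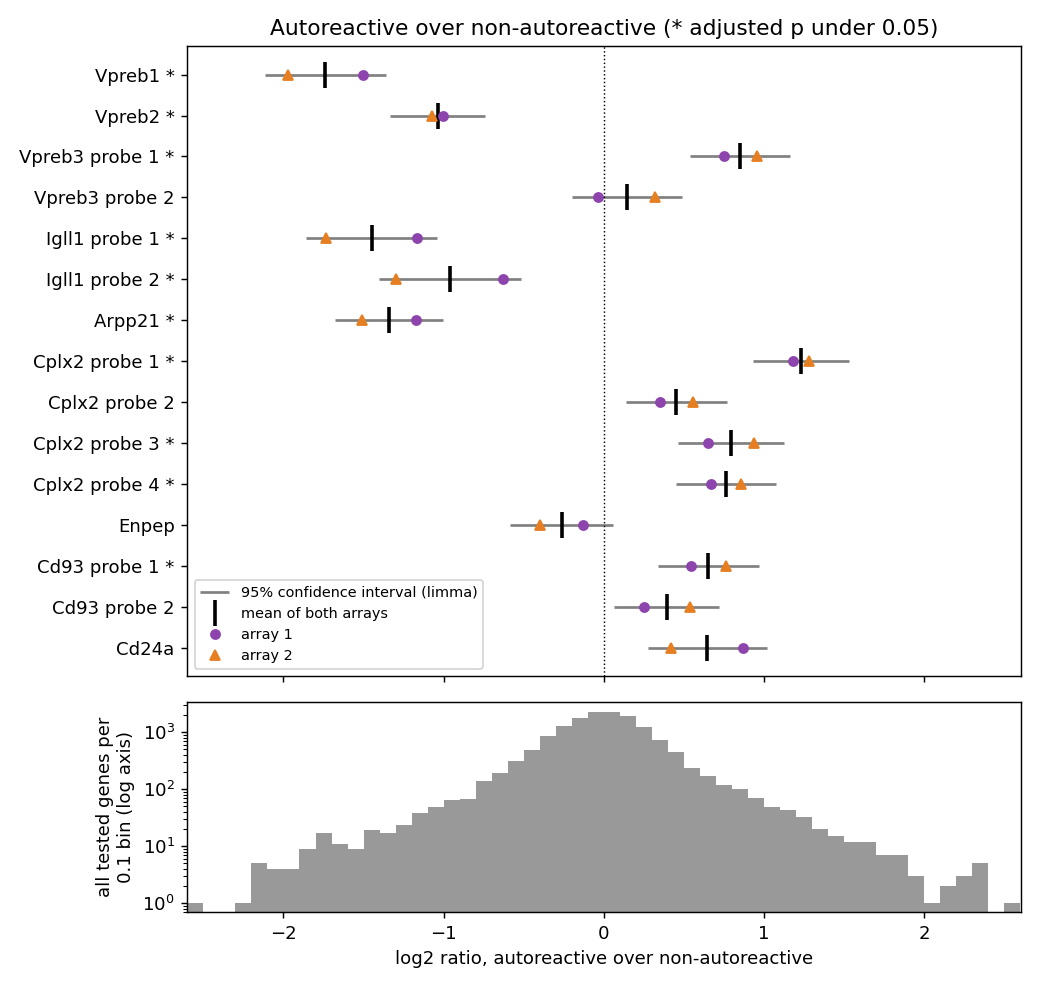
Top, log2 ratio of autoreactive over non-autoreactive cells for the 15 tested probes on each array (points), with the mean (bar) and its 95% confidence interval from limma (line); an asterisk marks an adjusted p under 0.05. Bottom, all 15104 tested genes by ratio on a log count axis, of which most lie near 0; Vpreb1 at -1.74 and Cplx2 at 1.23 lie at the ends of the members' range.

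Over all 10 genes, 3 were called higher (Cplx2, Vpreb3 and Cd93), 4 lower (Vpreb1, Igll1, Arpp21 and Vpreb2), 2 were tested and not called (Enpep and Cd24a) and 1 was not tested (Mme). Of their probes 10 of 15 tested were called, where 5.36% of all tested probes were. The 10 include 3 probes of Cplx2 and 2 of Igll1. The genes were chosen with earlier results of these data known, so this count is a description only. The 5 genes changed at least 2-fold on both arrays were Cplx2 on the higher side, where 1.01% of all tested genes were, and Vpreb1, Igll1, Arpp21 and Vpreb2 on the lower side, where 0.702% were. The median log2 ratio was -0.26 over the 9 tested genes, which is that of Enpep, and -0.0018 over all tested genes. It describes neither side well, since the genes fell into a lower and a higher set. When detection in both channels was required, Arpp21 and the dim Igll1 probe were no longer tested, which left 3 genes called lower, 4 genes past 2-fold and 8 called probes. Over all genes, 548 were then called higher and 398 lower, and the share of all probes called is not given.

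The lower calls kept their direction under every alternative that gave a value, with Vpreb1 between -1.97 and -0.61, Igll1 between -1.73 and -0.58, Vpreb2 between -1.13 and -0.50 and Arpp21 between -2.14 and -1.12. The smallest sizes came from median centring over all probes, which moved the median of all genes to 0.58; set against that shift they are larger. The calls were less steady than the directions. With a trended and robust variance none of the 4 was past the threshold (limma adjusted p = 0.11 for Vpreb1, 0.14 for Igll1, 0.15 for Arpp21 and 0.19 for Vpreb2), and when the channels were fitted without pairing them by array Vpreb1 alone was (limma adjusted p = 0.045). Over the 10 alternatives with a test (9 for Arpp21), the adjusted p from limma ran from 0.0022 to 0.11 for Vpreb1, 0.0041 to 0.26 for Igll1, 0.0022 to 0.34 for Vpreb2 and 0.00058 to 0.18 for Arpp21. It ran from 5.5e-05 to 0.036 for Cplx2, 6.5e-05 to 0.29 for Vpreb3 (0.00049 to 0.76 at its second probe), 0.00012 to 0.36 for Cd93 and 7.6e-05 to 0.41 for Cd24a. On the higher side Vpreb3 ranged from 0.32 to 2.30 and Cd93 from 0.28 to 1.93. These upper ends came from median centring over all probes, and set against its shift they are smaller. The lowest adjusted p from limma of Cplx2, Vpreb3, Cd93 and Cd24a came from that setting as well. With the deposited ratios Cplx2 was the one gene called higher, at 1.28 (limma adjusted p = 0.016).

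**Figure D4:**
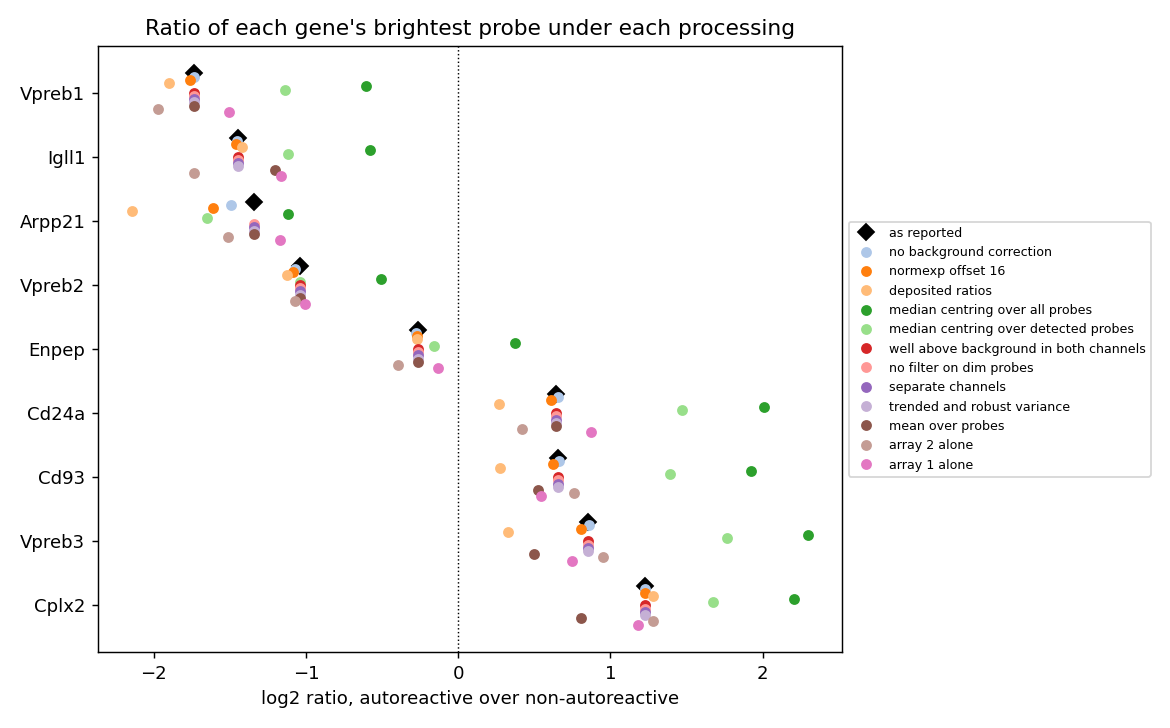
Mean log2 ratio of the brightest probe of each of the 9 tested genes as reported (diamond) and under each of 12 alternative ways of processing (coloured points). Vpreb1, Igll1, Arpp21 and Vpreb2 stay below 0 and Cplx2, Vpreb3, Cd93 and Cd24a above 0, Enpep reaches 0.38 with median centring over all probes, and the bright genes Vpreb3, Cd93 and Cd24a spread most.

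The arrays differed in the level of these genes as well as in their ratio. From array 1 to array 2 the normalized log2 level of Enpep fell by 1.83 in autoreactive and by 1.57 in non-autoreactive cells, which places it at 0.0619 and 0.0265 as percentiles of the differences of all tested probes. Enpep was the only one of the 9 tested genes that was at least 2-fold lower on array 2 in both channels, as were 23 (0.152%) of all tested genes. Its mean spot intensity went from 6743 to 1625 in Cy5 and from 2529 to 1014 in Cy3. Those changes were -2.05 and -1.32 on the log2 scale, while the 75 spots around it had medians of -0.40 and -0.083.

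The lower genes also had lower levels on array 2 in both channels. Igll1 was lower on array 2 by 1.30 (log2) in autoreactive and by 0.73 in non-autoreactive cells, Vpreb2 by 0.92 and 0.85, Arpp21 by 0.93 and 0.59, and Vpreb1 by 0.65 and 0.18. At their brightest probes, Cplx2, Cd93, Vpreb3 and Cd24a differed between arrays by at most 0.31 in either channel. Array 2 minus array 1 was -0.33 in autoreactive and -0.53 in non-autoreactive cells at another Cplx2 probe. It was 0.37 and 0.089 at the second Cd93 probe. The standard deviation of this difference over all tested probes was 0.34 in each channel. The summed levels of the T and NK and of the plasmacytoid dendritic cell markers were lower on array 2 in autoreactive cells and higher on it in non-autoreactive cells. With 2 arrays these differences have no test, and whether they lie in the pools, the RNA or the arrays was not tested.

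**Figure D5:**
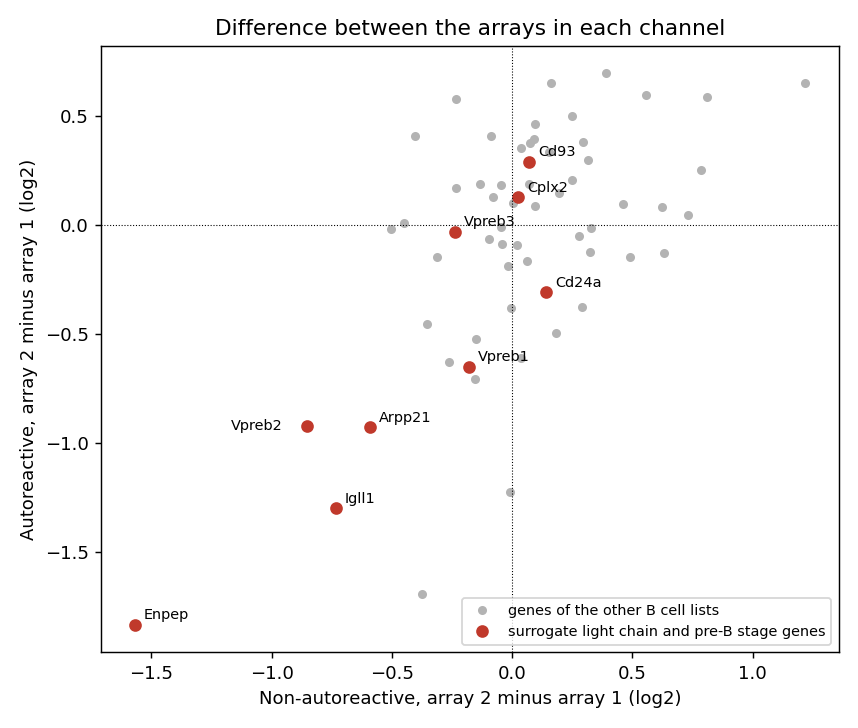
Difference in normalized log2 level between array 2 and array 1 in the autoreactive channel against that in the non-autoreactive channel, for the brightest probe of the 9 tested genes (red) and of the genes of 4 other B cell lists (grey). Enpep (-1.83 and -1.57), Igll1, Vpreb2 and Arpp21 were lower on array 2 in both channels, while Cplx2, Cd93 and Vpreb3 lie near 0.

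Other genes of the same steps of B cell development gave a mixed picture. The calls in each list below are to be read beside all tested genes, of which 3.52% were called higher and 2.62% lower. The shares of all tested genes at an unadjusted p are not given, so the unadjusted counts are a description only. Of 14 genes of the pre-B receptor and its signalling, 3 were called higher and none lower, with a list median of 0.012; at an unadjusted p under 0.05, limma put 4 higher and 2 lower. They were Blnk, an adaptor of receptor signalling (1.08 ± 0.12, limma adjusted p = 0.0092), Ighm, the mu heavy chain that pairs with the surrogate light chain (1.00 ± 0.16, limma adjusted p = 0.023), and the kinase gene Blk (0.69 ± 0.14, limma adjusted p = 0.044). With the deposited ratios these read 0.76 (limma adjusted p = 0.058), 0.41 (limma adjusted p = 0.26) and 0.70 (limma adjusted p = 0.083), and none of them passed the threshold. As reported here, the heavy chain transcript was higher in the cells in which those of its surrogate partners were lower.

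Of 14 transcription factors of early B cells, 1 was called higher and 2 lower, with a median of 0.13; at an unadjusted p under 0.05, limma put 4 higher and 3 lower. Irf4, which acts in shutting down the surrogate light chain and opening light chain loci, read 0.89 ± 0.18 (limma adjusted p = 0.049), and was past the threshold in 4 of 10 alternatives. Pax5, the B lineage commitment factor, read -1.05 ± 0.17 (limma adjusted p = 0.024), with its probes between -1.05 and -0.40. It was past the threshold in 6 of 10 alternatives and read -0.012 with median centring over all probes (limma adjusted p = 0.95). Spib read -0.64 ± 0.12 (limma adjusted p = 0.042), and its sign turned with median centring. Ebf1 and Tcf3, known activators of Vpreb1 and Igll1, read 0.39 (limma adjusted p = 0.13; probes from 0.041 to 0.39) and 0.22 (0.34; from -0.038 to 0.22) at their brightest probes. Ikzf3, which encodes Aiolos, a known repressor of Igll1, read 0.39 (limma adjusted p = 0.15), while its 3 probes ran from -0.38 to 0.39. Other factors of the list had negative ratios without a call. Ikzf1, which encodes Ikaros, read -0.39 (limma adjusted p = 0.22), and Irf8 read -0.36 (limma adjusted p = 0.22; probes from -0.55 to -0.36).

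Of 15 other pro-B and pre-B stage genes, 4 were called higher and 1 lower, with a median of 0.082. At an unadjusted p under 0.05, limma put 5 higher and 6 lower. Rag1, the gene labelled as disrupted, and Rag2 are among the 4 called higher. When detection in both channels was required, 13 genes were tested, of which 3 were called higher and 2 lower. Il2ra, which encodes CD25, a marker of small pre-B cells, read 1.14 ± 0.13 (limma adjusted p = 0.0095) with all 4 probes above 0. Rag2, which encodes the other recombinase subunit, was at least 2.14-fold higher in the reported processing (limma adjusted p = 0.011). A bound is given since its non-autoreactive signal was not well above background on either array. Over the alternatives its log2 ratio ran from 0.65 to 2.51, so the bound belongs to that processing. Ly6d, a surface marker of B lineage progenitors and later B cells, read -1.32 ± 0.14 (limma adjusted p = 0.0080). Rag2 was tested only through the channel where it is high. Il2ra was higher where Vpreb1, Igll1 and Vpreb2 were lower, but the list did not go 1 way. Its uncalled genes that were lower at an unadjusted p under 0.05 in limma were Dntt (-0.98), Erg (-0.68), Flt3 (-0.63), Kit (-0.47) and Ccnd3 (-0.42). Sox4 (0.56) was uncalled on the higher side. The autoreactive signal of Flt3 was well above background on 1 of 2 arrays.

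Of 10 tested genes of mature B cells, 6 were called lower and none higher, with a median of -1.40; at an unadjusted p under 0.05, limma put 7 lower and 1 higher. Ms4a1, which encodes CD20, read -3.61 ± 0.20 (limma adjusted p = 0.0014), Tnfrsf13c, the BAFF receptor gene, -1.94 ± 0.13 (limma adjusted p = 0.0026) and H2-Aa, a class II chain gene, -1.84 ± 0.13 (limma adjusted p = 0.0027), with -0.24 at its other probe. H2-Aa is a gene of the H-2 region, whose type differs between the groups. Whether its probes read both H-2 types alike was not tested. With a trended and robust variance 1 of the 6 lower calls was left.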

How the data were processed

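For each spot and dye, the deposited files give the mean intensity and the median intensity of the local background. Per the file headers, the images were read by version 9.5.1.1 of Agilent Feature Extraction. The files also give that program's dye-normalized log10 ratio of Cy5 over Cy3, which the deposited table repeats within 5e-10. Its p-value per spot was not used.

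Background was removed with normexp (offset 50) and each array was then loess-normalized on its own (limma 3.58.1, R 4.3.3); control and outlier spots had weight 0. Spots of a probe were averaged. Testing required a signal well above background on each array in 1 or both channels (22613 of 41174 probes). Log2 ratios were tested against 0, two-sided, with lmFit and eBayes (1 residual and 5.10 prior degrees of freedom) and Benjamini-Hochberg adjustment over all tested probes. The number of arrays limits the precision. Levels are log2 intensities after loess and Aquantile scaling. The brightest probe stands for its gene.

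A bound ("at least") divides the bright channel's mean by the dim probe's own signal or by the lowest signal that was well above background, whichever is higher, and is open to dye bias. All probes of the 10 genes are reported, and from each other list the 3 called genes with the largest ratio in each direction. Rag1, the disrupted gene, is added. Ebf1, Tcf3, Ikzf3, Ikzf1, Irf8 and the uncalled pro-B and pre-B stage genes that are named were added after their values were seen. Members and lists were chosen with earlier results of these data known. Ighd, Hbb-b1 and Ly6c2 were not found by name and were not analysed here. A further marker is not reported here. Probes were named through RefSeq (GRCm38.p6), promoters came from RefSeq for 8 of the 10 genes, and the scanner files name no build. Both arrays shared a slide and a scan. The procedure was tested on simulated data. The 12 alternatives were no background correction, normexp offset 16, the deposited ratios, median centring over all or over detected probes, detection in both channels, no filter, the mean over probes, separate channels, a trended and robust variance, and each array alone.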

Additional observations from a re-analysis of the deposited data

How the results depend on the processing

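With 2 arrays and no dye swap, the calls rest on the variance model, the filter and the dye scale: of 28 results, separate channels weakened 15, the trended variance 14, no filter 8 and the deposited ratios 7. Of 10 called member probes, 2 were called when the channels were fitted separately and 2 with a trended and robust variance. The 3 higher member genes became 1 with the deposited ratios, 1 with the mean over probes and 1 with separate channels. The 4 lower ones became 1 with separate channels and 0 with the trended variance in limma, where all 4 had an unadjusted p under 0.05. The share of all tested genes at that unadjusted p is not given. The 17 calls in the 4 other B cell lists, mature genes included, became 45 and 36 with median centring over all and over detected probes, 11 without a filter, 9 with separate channels and 7 with the trended variance. The 5 member genes past 2-fold became 3 with the mean over probes. The median of the members, -0.26, was 0.38 with median centring over all probes and 0.19 when detection in both channels was required, and -0.40 to -0.13 on single arrays. Reversed values were the second Vpreb3 probe, -0.17 with the deposited ratios, Enpep, 0.38 with median centring over all probes, and Spib, 0.64 and 0.11 with median centring over all and over detected probes. Median centring over all probes called 9932 genes higher and 382 lower, where 531 and 396 were called as reported. Median centring over detected probes called 2790 and 2505, no filter 379 and 244, separate channels 106 and 71, and the trended variance 354 and 11. The list and member counts above are to be read beside these. The cause of these differences was not tested. The reported fit is paired by array, since it tests the ratio within each, and separate channels is the fit without that pairing. No further block was fitted, since the autoreactive pools alone are numbered.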

Other observations

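Probes near background gave different values by processing. The Arpp21 probe for RefSeq NM_028755, another transcript of the gene, was not well above background in any channel, and its ratios were -0.18 and -0.43 after normexp but -1.31 and -1.34 in the deposited files. The dim Igll1 probe read -0.63 and -1.29 after normexp and -1.12 and -2.80 in the deposited files. The tested Arpp21 probe read -1.17 and -1.51 against -1.62 and -2.66. For the third Arpp21 probe and both Mme probes the deposited ratios are exactly 0 on both arrays.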
